A study of Mus musculus with 24 samples.

Results

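The genes described here are the mouse cytosolic ribosomal protein genes, taken as every row of the deposited tables whose symbol is Rpl or Rps followed by a number (with an optional a, x or l ending) or is Rplp0, Rplp1 or Rplp2. The rule found 82 of the 23420 genes listed in each of the 4 tables, 51 of the large subunit (Rpl and Rplp symbols) and 31 of the small subunit (Rps symbols). No measured value entered the choice. The study profiled the left lung lobe of newborn mice by RNA-seq after deletion of Vangl2 (a core component of planar cell polarity) or Ror2 (a receptor for Wnt5a) with Sox9Cre, a Cre recombinase driven from Sox9 that the study used to remove floxed genes from the lung epithelium. The 24 lungs fall into 8 groups of 3, namely Sox9Cre; Vangl2 f/f mutants and their controls at postnatal day 2 (P2) and postnatal day 5 (P5), and Sox9Cre; Ror2 f/f mutants and their controls at the same ages. Controls carry the genotype label WT, and those of the Vangl2 tables are titled Control(Vangl1/2). The sources used here give no strain, and they do not say whether lungs with different replicate numbers came from different litters, so the p-values below measure only the spread between these lungs.

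The whole lobe was sequenced although the deletion was made in epithelium, so a change in the epithelium is diluted by all other cells, and fewer cells of a type and less RNA per cell cannot be told apart. The titles were followed for the groups, because the genotype entry names Ror2 for the P5 Vangl2 mutants and Vangl2 for the P2 Ror2 mutants. The targeted genes were read in every lung as normalized counts, that is, reads divided by a size factor of the lung. Vangl2 was 369, 314 and 292 in the P5 Vangl2 controls and 170, 148 and 166 in the mutants (log2 difference -1.003, SE 0.18, limma with Benjamini-Hochberg adjustment, adjusted p = 0.060). At P2 it was 249, 302 and 281 in controls and 241, 224 and 173 in mutants (adjusted p = 0.24). The mutant lungs lay below every control lung at both ages, and neither difference passed the adjusted threshold of 0.05. Ror2 was 451, 581 and 520 in the P2 Ror2 controls against 479, 349 and 366 in mutants (adjusted p = 0.25), and 526, 368 and 597 against 362, 440 and 521 at P5 (adjusted p = 0.69). The Ror2 groups overlapped at both ages.

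Recovered reads per lung ran from 16178031 to 21546673 in 23 lungs. The Ror2 P5 control 1 held 13823693 and stood apart, since it had reads for only 299 of the 8087 genes on chromosomes 5, 6, 7, 8, 9 and X. Of these 294 lie on chromosome 5, which was lost only in part but was set to missing whole. All 32 ribosomal protein genes on those chromosomes are listed at 0 there, and for them that lung was set to missing. The Vangl2 P5 lungs also stood apart among themselves, with replicate 1 of each group far above replicates 2 and 3 for these genes, and results that rest on those lungs are given with and without them.

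A ribosome is built from a large and a small subunit, each a scaffold of ribosomal RNA dressed with many small proteins of which most are present in a single copy per particle. The P-stalk proteins Rplp0, Rplp1 and Rplp2 form the arm of the large subunit that recruits and activates the elongation factors. Ribosomal protein mRNAs are short and very abundant, begin with an uninterrupted pyrimidine run called the 5′ terminal oligopyrimidine tract, and are translated under the control of mTOR. Because such mRNAs are abundant in the germ line, the genome carries many reverse-transcribed copies of them, most without introns and counted as pseudogenes, and a short read from a ribosomal protein mRNA can match a copy as well as its gene of origin.

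The start tracts are shown for members that recur in the results below. Each line gives 30 bases of the RefSeq promoter table, on GRCm38 (the same build as mm10), with 12 bases before the annotated start and 18 from the start on, all on the plus strand. Capitals mark the longest run of C and T of at least 6 bases that touches the 5 bases before to 10 bases after the start, as far as it falls inside the window. The windows lie at chr2:180257367-180257396 (Rps21), chr13:90923110-90923139 (Rps23), chr9:64173375-64173404 (Rpl4), chr3:28805496-28805525 (Rpl22l1), chr1:72711248-72711277 (Rpl37a) and chr11:68901554-68901583 (Rpl26).
Rps21: cgaggacccgCCCTCCTgcccaatagtgct
Rps23: ttcggctgggcggggCTTCCCgcaatgcct
Rpl4: CTTTTCCTgtgggagcagccgggtagagag
Rpl22l1: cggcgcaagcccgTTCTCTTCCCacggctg
Rpl37a: cgctcgccggtctaaaaccgcgcatgcgca
Rpl26: gcggcaacttacagaaccggaagtcgcgtg

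Of the 62 members with a promoter sequence in the RefSeq table, 35 (56.5%) had such a run, against 7431 of 26963 other genes (27.6%). A run of at least 8 bases was found in 41.9% of the members and 13.0% of the other genes. The median run among genes that had one was 10 bases in members and 7 in other genes. The runs of Rps21 and Rpl22l1 were 7 and 10 bases long, that of Rpl4 was 14 with its first bases outside the window shown, and Rpl37a and Rpl26 had none at the annotated start. Of the 20 genes listed as other 5′ TOP genes (translation factors, Tpt1, Eef2 and small nucleolar RNA hosts among them), 14 had a promoter sequence and 8 of these had the run. A run is a match of letters at an annotated start and not a measured tract.

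The next lines show why a count for some members depends on how reads with several matches were treated, which is not given in the sources used here. Each pair gives 60 bases from the middle of the coding sequence (GENCODE M21 annotation, GRCm38) of a member and the most similar stretch found in another annotated gene, with capitals in the copy at bases that differ. The stretches lie in coding exons of Rps23 (chr13:90924345-90924404, plus strand), Rpl4 (chr9:64176992-64177051, plus strand) and Rpl23a (chr11:78181539-78182807, minus strand). In Rpl23a an intron lies between the coordinates. The copies are processed pseudogenes, at chr8:3583988-3584047 (minus), chr1:143093950-143094009 (minus) and chr14:34170859-34170918 (plus).
Rps23: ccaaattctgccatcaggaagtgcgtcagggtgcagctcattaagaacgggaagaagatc
Rps23-ps2: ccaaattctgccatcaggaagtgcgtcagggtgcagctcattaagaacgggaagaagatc
Rpl23a: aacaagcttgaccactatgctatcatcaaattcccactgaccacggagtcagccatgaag
Rpl23a-ps3: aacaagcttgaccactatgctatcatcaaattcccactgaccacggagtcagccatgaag
Rpl4: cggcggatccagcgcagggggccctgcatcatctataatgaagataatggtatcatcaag
Gm5835: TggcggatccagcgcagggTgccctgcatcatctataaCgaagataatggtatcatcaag

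The stretch of Rps23 is identical in 3 other genes and that of Rpl23a in 2. The copy of Rpl4 differed at 3 of 60 bases. Over all coding stretches of 50 bases, 30 members shared every stretch with at least 1 other gene, 37 shared at least 50% but not all, and 15 shared less. Rpl3l and Rpl39l were among those that shared none. In all, 1098 other genes held a stretch of a member, of which only 19 are rows of the tables, and no stretch was shared between members. Rpl7a shared stretches with 120 other genes, Rpl21 and Rpl29 with 82 each and Rps2 with 71. Reads assigned to most of these copies were therefore not seen here.

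Ribosomal protein mRNAs were among the most abundant in these lungs. Their median level, in RPKM, was 574.8, against 6.03 over the 19301 genes with an mRNA length. RPKM here means recovered reads per kilobase of mRNA, taken as a median over the lungs. Each lung was scaled to its reads on the chromosomes that were complete in every lung, not to its whole library. All RPKM values are therefore higher than they would be if scaled to whole libraries, and they serve to compare genes on 1 common scale. Of the 100 highest genes on this scale 40 were members, and 74 of the 82 lay above the median of the genes with reads. The highest were Rpl41 at 1889, Rps15 at 1785, Rplp1 at 1709, Rps14 at 1322 and Rps26 at 1213. In mean normalized counts, which favour long mRNAs, Rpl4 (22212), Rplp0 (17830) and Rpl41 (13432) led. The mRNAs of members were short, with a median of 777.5 bases against 2482 over all genes.

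A few members were listed at or near 0. Rpl26 was listed at 0 in all 24 lungs, as was the testis paralog Rpl10l. Rpl30, Rpl29, Rpl34 and Rps27 stood at 0.993, 2.02, 3.60 and 6.65 RPKM. Each of these 5 cytosolic members shares coding stretches with other genes, and 87.3% of the stretches of Rpl26 were shared, with 12 other genes. The coding stretch of Rpl26 at chr11:68903197-68903256 (plus strand) is identical in the pseudogene Gm15772, which was also listed at 0 in every lung. The part of shared sequence in these low values was not tested.
Rpl26: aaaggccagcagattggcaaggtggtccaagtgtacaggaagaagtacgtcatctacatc

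The paralog members all lay below the members' median level. Rps27l, a relative of Rps27 known as a p53 target, stood at 94.8 RPKM, Rpl22l1 (a relative of Rpl22) at 79.4 and Rpl7l1 (a nucleolar relative of Rpl7) at 36.7. Rpl3l, the form of Rpl3 found in striated muscle, stood at 0.372, and Rpl39l at 0.0448 with 0 reads in 12 lungs. Among the P-stalk genes Rplp0 ran from 7491 to 24432 normalized counts over the lungs with reads, Rplp1 from 3224 to 14750 and Rplp2 from 3632 to 7805.

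Several members took either a high or a low value with little between. Rpl21, a large subunit protein, was 59, 1560 and 1418 normalized counts in the P2 Ror2 controls and 1621, 51 and 2002 in the mutants. In the P5 Ror2 lungs it was 51 and 1304 in controls 2 and 3 and 1625, 641 and 40 in the mutants. Low and high lungs occurred in both genotypes at both ages. Rpl29 was 3196 in Vangl2 P2 control 3 and between 1.01 and 29.4 in the other lungs with values. Within a group of 3 lungs, 26 and 22 members spanned more than 2 on the log2 scale in the Vangl2 P5 controls and mutants, against 1 or 2 members in each of the other 6 groups. The median span was 1.59 and 1.53 in those 2 groups and 0.115 to 0.477 elsewhere.

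The share of all reads taken by the 82 genes showed the same split. In the Vangl2 P5 controls it was 2.44%, 0.976% and 1.17% in replicates 1, 2 and 3, and in the mutants 3.17%, 1.42% and 1.90%. Replicate 1 was highest in both groups, and the groups overlapped. In the Vangl2 P2 table the controls stood at 3.14%, 3.07% and 3.01% and the mutants at 2.77%, 3.28% and 3.75%. The Ror2 lungs with all chromosomes ran from 2.44% to 3.01%. In the Ror2 P5 table every mutant lung (2.78%, 2.78% and 3.01%) lay above the 2 controls with all chromosomes.

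**Figure D1:**
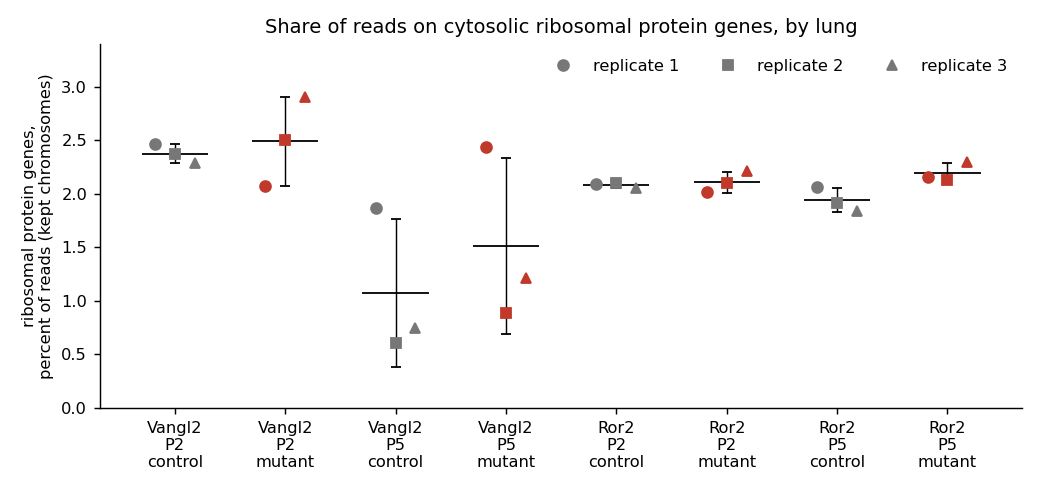
Percent of reads taken by ribosomal protein genes (vertical axis, counting only genes outside chromosomes 5 to 9 and X so that every lung can be compared) in each of the 24 lungs, with 1 point per lung, symbols for the replicate number, grey for controls and red for mutants. Replicates 2 and 3 of the Vangl2 P5 groups sit lowest, between 0.609% and 1.21%, below all other lungs.

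The Vangl2 P5 split reached individual genes to very different extents. Rps23, a protein of the decoding centre, was 5121, 21 and 41 in the controls and 7100, 35 and 34 in the mutants. Rpl23a, which lies at the exit of the nascent chain, was 4548, 26 and 28 in the controls and 3376, 34 and 29 in the mutants. Rpl41, the smallest ribosomal protein, was 10765, 802 and 1206 against 20616, 1199 and 1694. In each case replicate 1 of both genotypes was high and the other 4 lungs were low, so that the groups overlapped. Rpl4, by contrast, was 20739, 19546 and 18063 in the controls and 22107, 22485 and 24908 in the mutants.

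**Figure D2:**
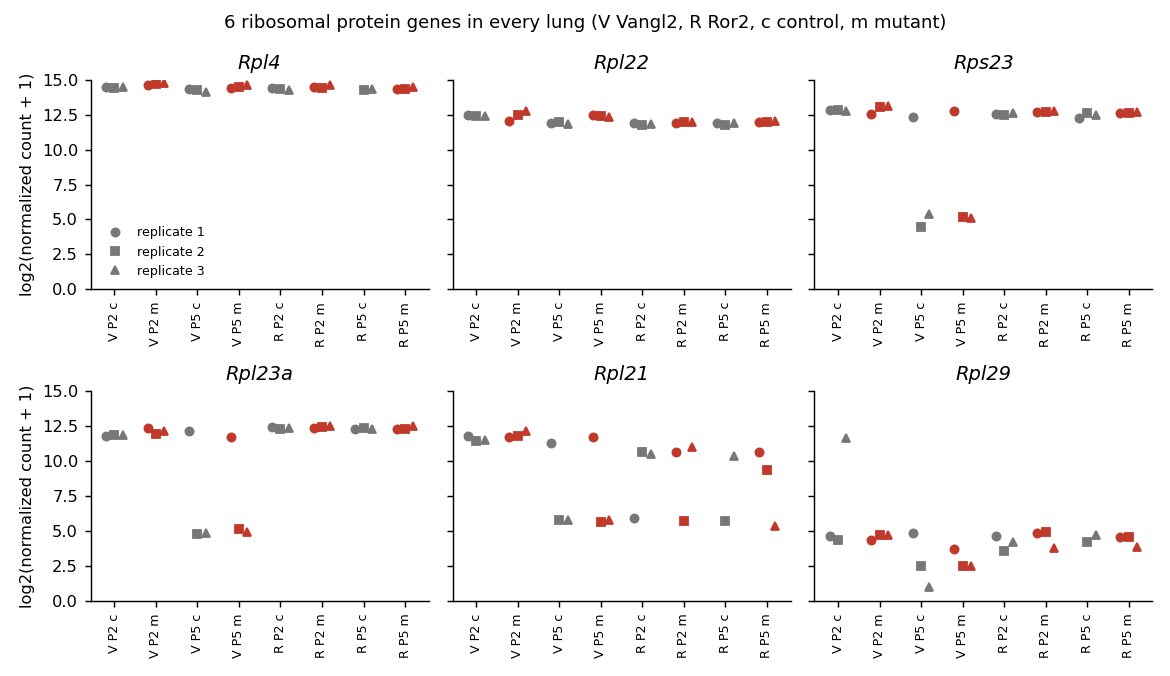
Log2(normalized count + 1) of Rpl4, Rpl22, Rps23, Rpl23a, Rpl21 and Rpl29 in every lung, 1 point per lung, symbols for replicate number, grey for controls and red for mutants (V, Vangl2; R, Ror2; c, control; m, mutant; Ror2 P5 control 1 is not drawn where it was set to missing). Rpl4 and Rpl22 stay within a narrow band, Rps23 and Rpl23a drop in 4 Vangl2 P5 lungs only, and Rpl21 and Rpl29 switch between levels elsewhere too.

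Each Vangl2 P5 lung was set against replicate 1 of its own group over the 79 members tested. The median log2 difference was -1.56 for control 2, -1.22 for control 3, -1.39 for mutant 2 and -1.13 for mutant 3, and 56, 47, 56 and 46 members were lower by more than 1. The same medians over 915 other genes of like mRNA length were -0.302, -0.0359, -0.204 and -0.106, and over all genes they lay between -0.0138 and 0.00656. Nuclear oxidative phosphorylation subunits stood at -0.466, -0.0431, -0.376 and -0.269. Mitochondrial ribosomal proteins stood at -0.338, -0.0121, -0.204 and -0.013. The 6 translation elongation factors stood at -0.703, -0.631, -0.291 and 0.024, and 2 of them were lower by more than 1 in each of these lungs. The 20 other 5′ TOP genes stood at -0.113, -0.5, -0.252 and -0.267, and 27 initiation factors at -0.219, -0.323, -0.174 and -0.14. The 5 ribosomal proteins with symbols outside the rule (Rack1 and Fau among them) stood at -1.47, -1.29, -1.39 and -0.828. In the other 3 tables the member medians against replicate 1 lay between -0.0613 and 0.398.

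The split was larger in members that share more of their coding sequence with other genes. The 30 members whose coding stretches were all shared had medians of -2.05, -1.89, -1.88 and -1.64 for control 2, control 3, mutant 2 and mutant 3. The 36 tested members with 50% to under 100% shared had -1.55, -1.26, -1.33 and -1.17. The 13 members under 50% had -0.493, -0.222, -0.47 and -0.102. Across the 79 genes, Pearson's r of the difference with the shared percent was -0.43, -0.436, -0.416 and -0.408 and Spearman's rho -0.545, -0.577, -0.522 and -0.54, while r with mRNA length lay between -0.0171 and 0.127. These are correlations across genes of the same libraries, given as a description, and genes are not independent replicates. The gene profiles of the split in controls and mutants resembled each other across the 79 members (r of 0.913 for replicate 2 and 0.936 for replicate 3). Fully shared genes were not all affected, since Rpl36a, with every stretch shared, differed by only -0.126, -0.453, -0.132 and -0.508. The part of shared sequence, RNA quality or read counting in the split was not tested.

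**Figure D3:**
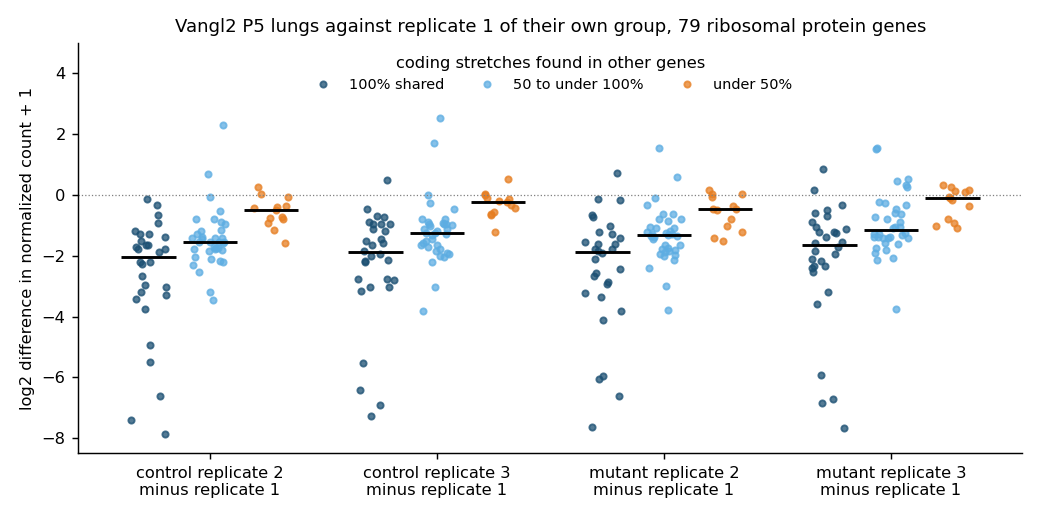
Log2 difference of each of 79 ribosomal protein genes (points) between a Vangl2 P5 lung and replicate 1 of its own group, for controls and mutants, coloured by the percent of 50-base coding stretches found in other annotated genes, with bars at the class medians. In all 4 lungs the fully shared genes sit lowest (medians -2.05 to -1.64) and the genes under 50% sit closest to 0 (medians -0.493 to -0.102).

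The 19 copies listed in the tables did not all go one way, as 3 of them show. The pseudogene Rps15a-ps4 was 19, 127 and 173 in the Vangl2 P5 controls and 14, 130 and 264 in the mutants, whereas Rps15a itself, a small subunit protein, was 3696, 1270 and 1686 in the controls and 6312, 1720 and 2391 in the mutants. Another copy of the same gene, Rps15a-ps6, was 28.3, 8.23 and 2.02 in the controls and 147, 7.83 and 1.79 in the mutants, highest in replicate 1 like the members. BC004004, which holds stretches of Rpl21, was 1256, 979 and 1351 in the controls and 1454, 1410 and 1276 in the mutants, with no split by replicate number. These 3 copies were singled out after their values were seen.

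The deletion of Vangl2 left the ribosomal protein genes at P2 without a call. Of 80 members tested, none passed the adjusted threshold (limma on log2(normalized count + 1), Benjamini-Hochberg over all genes), against 3.59% of all 17448 genes. At an unadjusted p under 0.05, 12 were higher and none lower in mutants, where 22.5% of all genes reached that level. On the log2 scale, 63 members lay above 0 and 17 below, with a median of 0.14 against 0.00 over all genes. Rpl32 had the lowest adjusted p. It was 7133, 7608 and 7735 in controls and 10341, 9013 and 10042 in mutants, so every mutant lung lay above every control lung (0.39, SE 0.10, adjusted p = 0.074). The median was 0.03 without mutant 3 and 0.23 without mutant 1. DESeq2 on the recovered reads called 3 members higher, where it called 11% of all genes.

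The P2 Vangl2 members with the largest changes included several at low counts. Rpl35a was 2161, 1054 and 1154 in controls and 2323, 1398 and 4465 in mutants (0.82, SE 0.42), with overlapping groups. Rps27 (0.45), Rps12 (0.40), Rpl32 and Rplp2 (0.38) followed Rpl35a, and for each of these 4 every mutant lung lay above every control lung. Their choice by the size of the change favours such a separation. The share of all genes without overlap was not counted. Rplp2 was 5253, 4862 and 5143 in controls and 7805, 5538 and 6643 in mutants. At the other end, Rpl29 (-2.28, SE 1.72) rested on the high control 3 named above. Rpl3l (-1.07), Rpl39l (-0.86) and Rpl30 (-0.66) held at most 10.5 normalized counts in any lung of this table, and Rps27l stood at -0.35.

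At P5 the differences of the Vangl2 mutants from their controls were mostly positive, beside the wide spread between replicate numbers. Of 79 members tested none passed the threshold, against 0.563% of 17410 genes, and 7 were higher and none lower at an unadjusted p under 0.05, against 18.8% of all genes. The log2 differences lay above 0 for 74 members and below 0 for 5, with a median of 0.41 (all genes 0.00). Rpl22, which lies on the surface of the large subunit, had the lowest adjusted p. It was 3883, 3984 and 3554 in controls and 5748, 5433 and 5158 in mutants, with no overlap (0.52, adjusted p = 0.11). DESeq2 on the recovered reads called 4 members higher, with 6.87% of all genes called. The median was 0.03 without mutant 1 and 0.96 without control 1, and 0.494 without replicate 1 of both groups.

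In these 6 lungs the replicate numbers were taken to pair the samples, from the data and not the labels. Deviations of same-numbered lungs correlated at r 0.384, 0.34 and 0.241 over all genes and at 0.934, 0.826 and 0.889 over the members. Over all genes the highest r with a lung of another number was -0.166, -0.0492 and -0.12. Over the members no such r was taken. There the split of replicate 1 from replicates 2 and 3, shared by both groups, can by itself give high values. The member values therefore do not show that replicates 2 and 3 are paired. A block for the number changed the count of calls. With the block, 30 members were called higher and none lower, against 5.47% of all genes called higher and 8.95% called in either direction. Within replicates 1, 2 and 3 the median mutant minus control difference was 0.33, 0.458 and 0.533, with 62, 74 and 75 of 79 members above 0. A higher value in the mutant under all 3 numbers was seen in 57 members (72.2%) and in 26.1% of all genes tested. Without replicate 1 of both groups, limma with the block called 3 members. The share of all genes called in that fit was not counted, so the 3 have no background beside them.

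The lowest blocked p belonged to Rps21, a small subunit protein. It was 2053, 929 and 1634 in controls and 5243, 1820 and 2779 in mutants, higher in the mutant under each number although the groups overlapped (1.03, SE with the block 0.13, adjusted p = 0.012). Rpl37a was 4164, 1176 and 1650 against 8231, 2069 and 2473 (0.79, adjusted p with the block = 0.016). Rps10 was 4513, 782 and 1300 against 6713, 1279 and 2179 (0.68, adjusted p with the block = 0.017). These 3 genes show the split and the genotype difference side by side. Rpl36a was 2962, 2715 and 2164 in controls and 4727, 4312 and 3323 in mutants, with neither a split nor an overlap (0.65, adjusted p with the block = 0.017).

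The other blocked calls among the 20 lowest included Rps14 (0.74), Rpl9 (0.68), Rps29 (0.65), Rps19 (0.56), Rpl41 (0.67), Rpl22l1 (0.69), Rpl18 (0.55), Rpl31 (0.58), Rps18 (0.51), Rpl12 (0.54), Rps15 (0.61), Rps15a (0.57), Rpl27a (0.72) and Rps7 (0.54). All of these were higher in the mutant under each number, which their choice by the blocked test favours. Without the block, leaving out mutant 1 turned Rpl41 and Rps29 to -0.62 and -0.38. The largest unblocked differences were those of Rpl3l (1.43, SE 0.48), at no more than 16.1 normalized counts, and of Rps21, Rps27a (0.87), Rps28 (0.82) and Rpl37a. Rps2 (-0.26), Rpl15 (-0.17), Rpl35a (-0.04), Rpl7l1 (-0.02) and Rpl23a (-0.02) were the lowest.

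**Figure D4:**
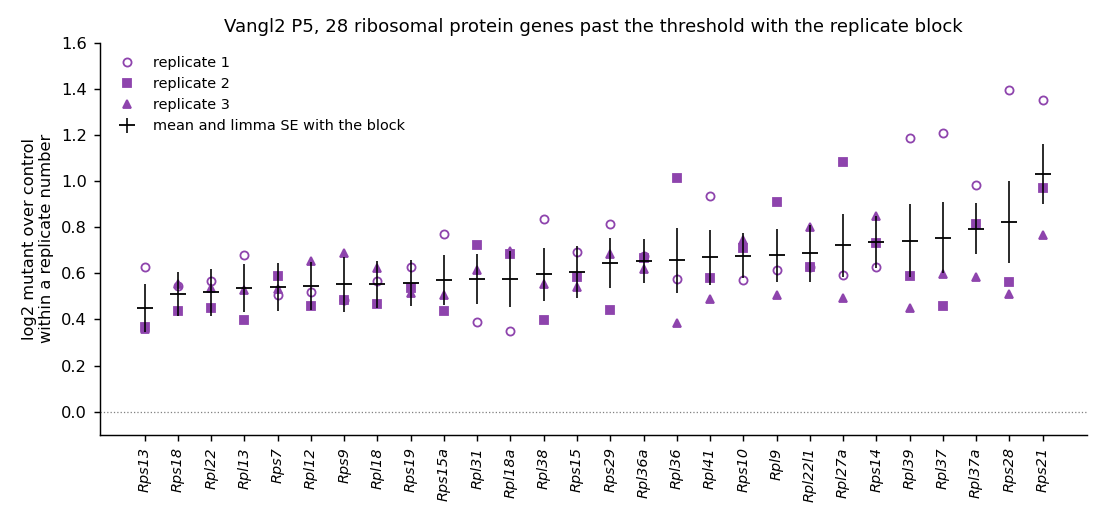
Log2 difference of mutant over control within each replicate number (symbols) for 28 of the 30 ribosomal protein genes past the threshold in the Vangl2 P5 comparison with the replicate block, with the mean and its limma standard error (black). All symbols lie above 0, which the choice of genes by this test favours, and Rps21 has the highest mean at 1.03.

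Deletion of Ror2 at P2 gave the smallest median of the 4 mutant comparisons. None of 80 members passed the threshold, and 0% of 17541 genes did. At an unadjusted p under 0.05, 5 members were higher and 2 lower, against 19.3% of all genes. The log2 differences lay above 0 for 62 members and below 0 for 18, with a median of 0.10 against -0.01 over all genes. Without mutant 3 the median was -0.0014, and without mutant 2 a single member was called lower. Rpl7l1, the nucleolar relative of Rpl7, had the lowest adjusted p. It was 1168, 1195 and 1133 in controls and 887, 1065 and 845 in mutants, every mutant lung below every control lung (-0.33, SE 0.10, adjusted p = 0.21). Rpl39l (-0.96), Rps2 (-0.41), Rpl34 (-0.35) and Rps27l (-0.34) completed the low end, and Rps27 (0.70), Rpl30 (0.60), Rpl3l (0.45), Rpl29 (0.35) and Rpl35a (0.29) the high end. Rpl39l, Rpl34, Rps27, Rpl30, Rpl3l and Rpl29 held at most 54.1 normalized counts in any lung of this table.

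At P5 the Ror2 mutants had a median of 0.15 with no call. Of 80 members tested none passed the threshold, against 0.128% of 17179 genes. At an unadjusted p under 0.05, 22 were higher and none lower, against 18.4% of all genes. The log2 differences lay above 0 for 69 members and below 0 for 11. Rps24, a small subunit protein, was 11197, 7407 and 7472 in controls and 16704, 13095 and 12737 in mutants, with every mutant lung higher (0.72, SE 0.18, adjusted p = 0.14). Rpl35a was 119, 201 and 380 in controls and 468, 378 and 555 in mutants, with overlapping groups (1.14, SE 0.38, adjusted p = 0.19). Rpl30 (0.69), Rpl39l (0.56) and the switching Rpl21 (0.42, SE 1.8) followed. Rpl3l (-0.28), Rpl7a (-0.13), Rps27 (-0.12), Rpl29 (-0.11) and Rpl34 (-0.10) were the lowest. DESeq2 called 6 members higher, where it called 4.67% of all genes.

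**Figure D5:**
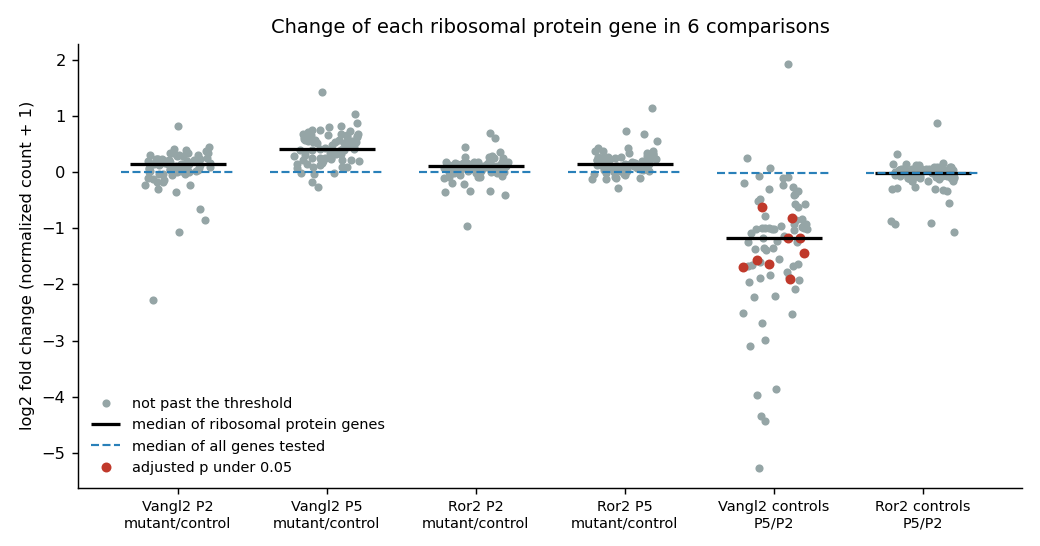
Log2 fold change of every tested ribosomal protein gene (points) in the 4 mutant over control comparisons and the 2 comparisons of control lungs at P5 over P2, with black bars at the members' medians, dashed lines at the median of all genes and red points past an adjusted p of 0.05 (limma without the block). The mutant comparisons have medians from 0.10 to 0.41 with no red point, and the Vangl2 controls have a median of -1.17 with 9.

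Changes from P2 to P5 were read in the control lungs of each line, after the 2 tables were rescaled together. Each age is a table of its own, so age and table cannot be told apart. In the Vangl2 controls 9 of 79 members were lower at P5 and none higher past the threshold, where 0.785% of 17328 genes were called lower and 2.06% in either direction. At an unadjusted p under 0.05, 60 were lower and 1 higher, against 23.1% of all genes. The log2 differences lay below 0 for 76 members, with a median of -1.17 against -0.01 over all genes. When only P5 control 1 was used, outside the low replicates 2 and 3, the median was -0.21 and no member was called. Without P5 control 1 the number lower was 66, and without P5 control 2 it was 2. It was 0 without P5 control 3 or without any 1 of the P2 controls. The share of all genes called in these refits was not counted, so their member counts have no background beside them.

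The 9 called genes were lower in every P5 lung, which their choice by the test favours. Rps27l, the p53-responsive relative of Rps27, was 1341, 1311 and 1097 at P2 and 613, 451 and 616 at P5 in jointly rescaled counts (-1.17, SE 0.15, adjusted p = 0.024). Rpl36a was 4964, 4665 and 4743 at P2 and 3093, 2849 and 2263 at P5 (-0.82, adjusted p = 0.034). Rps21 was 5408, 4514 and 4333 against 2143, 974 and 1709 (-1.63, adjusted p = 0.034). P5 control 1, outside the low replicates, also lay below every P2 lung for these genes. Others were Rpl37 (-1.57), Rps28 (-1.69), Rpl38 (-1.43) and Rpl22l1 (-1.17). With P5 control 1 alone the differences of the genes named here were smaller, from -1.14 for Rps21 to -0.58 for Rpl22l1, and none was called.

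The largest differences in the Vangl2 controls were not called, since replicates disagreed. Rps23 was 6846, 6895 and 6506 at P2 and 5346, 22 and 43 at P5 (-5.26, SE 1.75, adjusted p = 0.13). Rpl23a (-4.43), Rpl17 (-4.33), Rpl29 (-3.97) and Rpl21 (-3.85) followed. Rpl30 (1.92), Rps27 (0.25), Rplp2 (0.07), Rps12 (-0.07) and Rpl4 (-0.08) were at the other end. edgeR on the recovered reads called 3 members lower, with 1.14% of all genes called, and DESeq2 called 20 lower, with 9.48% of all genes called.

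The Ror2 controls gave another picture. None of 80 members passed the threshold, although 8.95% of 17370 genes did. At an unadjusted p under 0.05, 2 members were higher and 4 lower, against 27.9% of all genes. The median was -0.02, with 32 members above and 48 below 0. Rpl39l (-1.07), Rpl21 (-0.93), Rpl35a (-0.91), Rps2 (-0.87) and Rps18 (-0.55) were lowest. Rps18 was 5946, 5579 and 6021 at P2 and 5460, 3544 and 3304 at P5 in jointly rescaled counts, lower in every P5 lung (SE 0.17, adjusted p = 0.088). Rpl3l (0.88), Rpl29 (0.32), Rpl27 (0.17), Rpl7l1 (0.14) and Rpl7 (0.14) were highest. Rps27l and Rps21, called in the Vangl2 controls, were 548, 616 and 683 against 524 and 569 and 1461, 1752 and 1539 against 1829, 1694 and 1543, with overlapping ages. DESeq2 called 3 members lower, where it called 14.5% of all genes.

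Differences between the comparisons were tested as interaction terms over 12 lungs. No member passed the threshold in any of the 4. The Vangl2 change minus the Ror2 change had a member median of 0.05 at P2 and 0.31 at P5, where 0% and 0.0118% of all genes were called. The change at P5 minus that at P2 had a median of 0.28 for Vangl2 and 0.08 for Ror2, with 0% of all genes called in each. Medians that hold Vangl2 P5 lungs turned with 1 lung, to -0.18 and -0.12 without Vangl2 P5 mutant 1 and to 0.77 and 0.79 without control 1 (Vangl2 minus Ror2 at P5, and Vangl2 at P5 minus P2), and the median at P2 was -0.06 without Vangl2 P2 mutant 3. Since no member was called, a difference between the 2 deletions or the 2 ages was not shown for any single gene. The most positive was that of Rpl3l, whose Vangl2 change was greater at P5 than at P2 by 2.50 (SE 1.01, adjusted p = 0.58) at low counts. Rps21 followed among well-read genes with 1.26 (SE 0.56).

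The paralogs and the P-stalk were compared with the rest. Among tested paralogs the median was -0.35, 0.63, -0.33 and 0.17 in the Vangl2 P2, Vangl2 P5, Ror2 P2 and Ror2 P5 comparisons, with none called without the block. Rpl22l1 was 842, 885 and 828 in P2 Vangl2 controls against 618, 874 and 1053 in mutants, and 518, 295 and 266 against 801, 457 and 465 at P5 (0.69, SE 0.31), and it was the 1 paralog called with the block there. The P-stalk genes had medians of 0.25, 0.26, 0.03 and 0.03, none called, and -0.84 and -0.07 in the Vangl2 and Ror2 controls. The large and small subunits had medians of 0.14 and 0.139 in the Vangl2 P2, 0.378 and 0.509 in the Vangl2 P5, 0.0997 and 0.0999 in the Ror2 P2, 0.123 and 0.194 in the Ror2 P5 and -1.20 and -1.14 in the Vangl2 control comparison.

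Other genes of like mRNA length, between the quartiles of the members (582.5 to 1048.5 bases), were read as a background for short mRNAs. Their medians in the 4 mutant comparisons were -0.05, 0.27, -0.12 and 0.05, where the members within that range stood at 0.14, 0.40, 0.10 and 0.16. In the Vangl2 P5 comparison 13 of 915 such genes were higher and 1 lower, and 88 and 3 with the block. In the Vangl2 controls their median was -0.31, against -1.08 for the members in the range, with 6 of 904 higher and 17 lower. In the Ror2 controls it was -0.04 against -0.02.

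Lists of genes that build, regulate or use ribosomes were read alongside. The 43 tested ribosome biogenesis factors (such as Ncl, Fbl and Nop56) had none called in the mutant comparisons. Their medians were -0.23 in the Vangl2 P2 comparison with 2 above 0, -0.19 in the Ror2 P2 comparison with 4 above 0, and -0.06 in each P5 comparison. The 22 growth-control genes (mTOR pathway and Myc family) had medians of 0.20, -0.02, 0.07 and -0.06 with none called. The 27 initiation factors stood at 0.05, -0.04, -0.06 and -0.06, and the 6 elongation factors, most of which are also 5′ TOP genes, between -0.03 and 0.06, again with none called without the block and 1 elongation factor higher with it at Vangl2 P5. The 20 other 5′ TOP genes stood at 0.08, 0.09, 0.05 and 0.04 with none called, and 2 were called higher in the Vangl2 P5 comparison with the block.

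Of the same lists in the control lungs, 1 growth-control gene was higher at P5 in the Vangl2 controls and 1 initiation factor, Eif4a2, was lower in the Ror2 controls (-0.34, SE 0.066). Among the 5′ TOP genes of the Vangl2 controls, Snhg8, a small nucleolar RNA host, was lower (-1.14, SE 0.16) and Hnrnpa1, a splicing factor, higher (2.00, SE 0.36), and the list's median was -0.24. Hnrnpa1 held few normalized counts, at 19, 33 and 19 in the P2 controls and 67, 135 and 72 in the P5 controls before the joint rescaling. Of the 5 ribosomal proteins outside the rule, Fau, the ubiquitin-like fusion that yields Rps30, was lower (-0.54, SE 0.099). No biogenesis or elongation gene was called in either control comparison. The elongation factors had medians of -0.32 (4 of 6 below 0) and 0.01 in the Vangl2 and Ror2 controls, and the biogenesis factors -0.03 and -0.06.

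Genes for proteins of the mitochondrion were compared as 2 further classes. The 72 nuclear oxidative phosphorylation subunits had medians of -0.18, 0.15, -0.26 and -0.03 in the mutant comparisons and the 76 mitochondrial ribosomal proteins -0.24, 0.04, -0.19 and -0.04, with none called without the block. With the block for Vangl2 P5, 4 oxidative phosphorylation subunits and 0 mitochondrial ribosomal proteins were called higher. At P2 the members' medians, 0.14 and 0.10, had the other sign. In the Vangl2 controls the 2 classes had medians of -0.32 and -0.16 from P2 to P5, with 4 and 2 genes lower. Ndufa3, a subunit of complex I, stood at -0.78 (SE 0.14) and Mrpl33, of the mitochondrial large subunit, at -1.30 (SE 0.13). In the Ror2 controls the medians were -0.01 and 0.01.

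Marker genes of the cells in the lobe also moved with the groups. All 20 mitosis genes were called lower in the Vangl2 P2 mutants (median -1.81). In the other mutant comparisons all 20 lay below 0, and none was called without the block. The medians there were -0.68, -1.78 and -0.76 for Vangl2 P5, Ror2 P2 and Ror2 P5 (1 called lower at Vangl2 P5 with the block). Of 11 neutrophil genes 9 were called higher in the Vangl2 P2 mutants and 4 at P5 (9 with the block). All 11 lay above 0 at both ages (medians 1.51 and 1.90). In the Ror2 controls 3 were called lower at P5 than at P2, and all 11 lay below 0 (median -2.01). The summed lymphocyte markers were 17905 normalized counts in Vangl2 P5 mutant 3 and 972 to 1868 in the other Vangl2 P5 lungs. Summed macrophage markers ran from 16813 to 27154 in the Vangl2 P5 controls and from 39511 to 51416 in the mutants. Most of each sum was 1 gene, Lyz2, at 22034, 12724 and 14527 in the controls and 44250, 34464 and 32178 in the mutants. The sums therefore mainly show Lyz2. All 9 macrophage genes lay above 0 (median 0.70), and 6 of 9 were called higher with the block and 0 without it. All 8 endothelial markers lay below 0 in the Vangl2 P5 mutants (median -0.53, 2 called lower with the block and 0 without it), with sums of 80224 to 89290 in controls and 46438 to 75153 in mutants. Alveolar type I, alveolar type II, endothelial and myofibroblast sums were at least 46438 in every lung with all chromosomes, so the lung markers were present. The erythroid globin genes Hba-a2 and Hbb-b2 were at 0 in every group, but other erythroid genes were read. All 4 tested erythroid genes lay below 0 in the Vangl2 P2, Vangl2 P5 and Ror2 P2 comparisons (medians -1.40, -0.52 and -1.51). At Ror2 P5, 4 of 5 did (median -0.24). Alas2 was called lower at Vangl2 P2 (-1.51, SE 0.27, limma, adjusted p = 0.033). With the block, 1 erythroid gene was called lower at Vangl2 P5. The part of cell composition in the ribosomal protein values was not tested.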

How the data were processed

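Left lung lobes were profiled by RNA-seq, with 4 deposited tables of 6 lungs each. The deposited values are a signal, read counts that the authors divided by DESeq2 size factors. DESeq2 and mm10 are named in the submitters' processing notes, and the aligner, counter, strand setting and annotation are not given in the sources used here. The authors' comparison columns (mean, log2 fold change, its error, statistic and p-values) were not used. Per-sample columns not used numbered 0. Whole reads were recovered from 100% of values (tolerance 0.02).

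The test covered genes that reached a normalized count of 1 in 3 or more lungs. It used limma 3.58.1 (trend) in R 4.3.3 on log2(normalized count + 1), so fold changes of low genes are understated, with Benjamini-Hochberg adjustment over all genes. Control lungs of 2 ages were rescaled together by median of ratios. edgeR 4.0.16, DESeq2 1.42.0, other scalings, filters and pseudocounts, left-out lungs and a replicate block were alternatives. An exact permutation test of 3 against 3 lungs cannot go below 0.1. Scripts were tested on simulated data. Same-numbered Vangl2 P5 lungs deviated together (r 0.384, 0.34 and 0.241 over 17410 genes), so the numbers were taken to pair them, from the data and not the labels. The genes named are the 5 highest and 5 lowest members per comparison between groups, called members up to 20, paralogs, P-stalk genes, the 3 most abundant members and the targeted genes, plus members shown as examples of a pattern, which were chosen after their values were seen. Members, lists and tests were chosen with earlier results of these data known. Results of some genes are not reported here by name, and all members stay in the counts and medians.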

Additional observations from a re-analysis of the deposited data

How the results depend on the processing

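Medians of the ribosomal protein genes kept their sign under every planned other setting without a left-out lung, and the counts were 0 under most. The exceptions follow, and their cause was not tested unless the construction of the setting gives it. Members called higher in mutants numbered 3 (Vangl2 P2), 4 (Vangl2 P5) and 6 (Ror2 P5) with DESeq2, and 4 for Vangl2 P5 when all 12 lungs of the age shared 1 fit. For the Vangl2 controls, members lower at P5 numbered 16 with scaling by total reads, 3 with edgeR and 20 with DESeq2, and for the Ror2 controls 2 with scaling by total reads (median -0.11) and 3 with DESeq2. Without the filter on low values, Rpl22l1 and Rpl38 lost their calls in the Vangl2 controls by a small margin (limma, adjusted p = 0.0515 and 0.0511). When the zeros of Ror2 P5 control 1 were used as deposited, the medians were 0.33 (Ror2 P5), -0.28 (Ror2 controls) 0.25 (Ror2 change at P5 minus P2) and 0.02 (Vangl2 minus Ror2 change at P5), as its 0 values then count as low control values.

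With the replicate block, 30 members were called higher in the Vangl2 P5 comparison, where the numbers were taken to pair the lungs. In the Vangl2 controls, where lungs of 2 ages share only a number, 0 were called lower at P5. The block changed no other count of calls among the ribosomal protein genes. Settings chosen after seeing the data gave 3 members in the Vangl2 P5 comparison without replicate 1 of both groups, with the block. The share of all genes called there was not counted. In the Vangl2 controls without P5 replicates 2 and 3, such a setting gave a median of -0.21. In that last fit the lone P5 lung was assumed to vary like the P2 lungs.

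Leaving out 1 lung at a time, the number of members lower at P5 in the Vangl2 controls ranged from 0 to 66 and the number higher from 0 to 1. For all counts with a left-out lung, the share of all genes called was not counted. For the Ror2 controls the number lower ranged from 0 to 4 (4 without P5 control 1), and for Ror2 P2 it ranged from 0 to 1 with a median from -0.0014 to 0.13. In the Vangl2 P5 comparison without the block, Rpl41 ranged from -0.62 to 1.82 and Rps29 from -0.38 to 1.59, lowest without mutant 1 and highest without control 1. Differences of the genes with the fewest reads (Rpl30, Rpl3l and Rpl39l) are limited by depth.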
